A study of Homo sapiens with 12 samples.

Results

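Integrins are the adhesion receptors described here: 9 integrin subunit genes out of 2587 genes in the authors' deposited table, 7 encoding alpha chains (ITGA4, ITGA6, ITGA9, ITGAD, ITGAL, ITGAM and ITGAX) and 2 encoding beta chains (ITGB5 and ITGB6). They were chosen by name, as every listed gene whose symbol is an integrin chain, with binding proteins and antisense RNAs left out. The same rule finds 26 integrin genes in the GENCODE 29 annotation, and the other 17 were not analysed here. Poly(A) RNA was sequenced from Jurkat cells, an established human T-cell leukaemia line, in 4 groups of 3 libraries each: HuRKO activated, WT activated, HuRKO rest and WT rest. HuRKO cells are knocked out for HuR, the product of ELAVL1, which binds mRNAs at runs of A and U, and WT cells are the wild type. Activation lasted 24 h with PMA at 20 ng/mL and ionomycin at 500 ng/mL, agents that activate protein kinase C and raise calcium, while resting cells got neither. How the knockout was made, and whether it is 1 clone, is not given in the sources used here.

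An integrin is a pair of 1 alpha and 1 beta chain that spans the plasma membrane, and the chains reach the cell surface mainly as a pair. Intracellular signals switch the pair from a bent to an extended form that binds its ligand, and in T cells this step lets the T-cell receptor and chemokines control arrest on vessel walls and the synapse with an antigen-presenting cell. The alpha L, M, X and D chains share the leukocyte beta 2 chain, alpha 4 pairs with beta 1 or beta 7, alpha 6 with beta 1 or beta 4, alpha 9 with beta 1, and beta 5 and beta 6 with alpha V. No listed beta chain is thus a known partner of a listed alpha chain, so each pair below is seen from 1 side.

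The table holds no values per library. Levels below are normalised counts of a group, rebuilt from the table's mean level and fold changes, and carry no spread of their own. The false discovery rate (FDR) is the authors', and the standard error (SE) given as "at most" a value is the largest that this FDR allows under a normal approximation. A level below 1, which is 3 counts over the 3 libraries of a group, is below the floor used here. A gene is in the table only where 1 or more of the 4 comparisons changed it over 4-fold at an FDR below 0.05. ITGA4, ITGA6 and ITGB6 passed in activated HuRKO against activated WT cells alone, so the call of those 3 genes in that comparison is what put them in the table.

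Facts of the whole series that bear on these genes are few. ELAVL1 was at 471 in activated HuRKO against 2552 in activated WT cells, and at 596 in resting HuRKO against 4042 in resting WT cells. It was lower in the knockout in both states in the authors' deposited table (FDR 1.2e-131 and 2.6e-172). Of 15 T-cell markers 5 were listed (CD2, CD28, CD4, CD7 and TRAC), with summed levels of 28062, 26584, 4940 and 10697 in activated HuRKO, activated WT, resting HuRKO and resting WT cells. TRAC makes up most of the sum in activated cells, and the members went opposite ways there, with CD28 and CD4 higher and CD2 and TRAC lower in HuRKO. Of 17 listed chromosome Y genes, 16 were lower in HuRKO than in WT cells at rest and 16 after activation, and their part in the results below was not tested. The effect of the knockout and any other difference between the HuRKO and WT cells cannot be told apart. In bulk RNA, fewer cells that express a gene and less RNA per cell cannot be told apart either.

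In activated cells, 4 integrin genes were at least 5-fold higher in HuRKO than in WT. These were ITGAL, the alpha chain of LFA-1 (CD11a), ITGA4, the alpha chain of VLA-4 (CD49d), ITGA6, a laminin receptor chain (CD49f), and ITGB6, a receptor chain for fibronectin and latent TGF-beta. ITGB5, a vitronectin receptor chain, was higher by less. ITGA9, ITGAX (CD11c) and ITGAD (CD11d) were lower in HuRKO, and ITGAM (CD11b) was not called. In all, 8 of 9 were called, 5 higher and 3 lower. The background is high, since 77.6% of listed genes were called in this comparison, 42.2% higher and 35.4% lower, so the count of calls is no result about integrins.

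**Figure D1:**
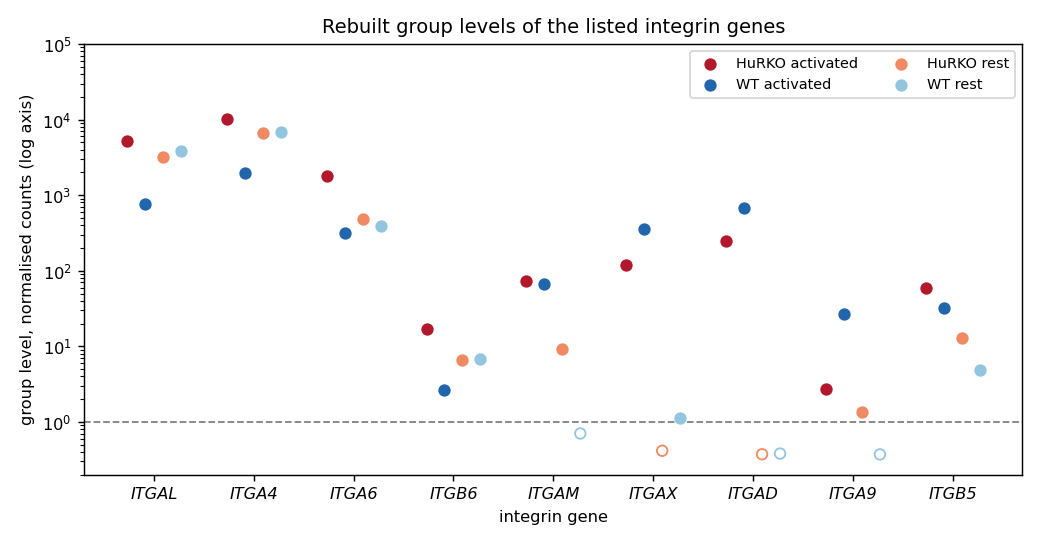
Rebuilt group levels (vertical log axis, normalised counts) of the 9 listed integrin genes (horizontal axis) in activated HuRKO, activated WT, resting HuRKO and resting WT cells, with open circles below the dashed floor of 1 and no error bars, since the table gives no spread. For ITGAL, ITGA4, ITGA6 and ITGB6 the activated WT group is the lowest of the 4, whereas ITGAX, ITGAD and ITGA9 are highest there.

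LFA-1 is the integrin by which T cells bind ICAM-1 on other cells. Its alpha chain gene ITGAL (ENSG00000005844.17, chromosome 16, 30472658 to 30523185, plus strand of hg38) stood at 5202 in activated HuRKO against 753 in activated WT cells, and at 3184 in resting HuRKO against 3798 in resting WT cells. The activated WT group stood below the other 3. The authors' deposited table gives a log2 change of 2.79 between the activated groups (6.91-fold, SE at most 0.12, FDR 1.5e-120). At rest the table's change was -0.25 (SE at most 0.16, FDR 0.10), which did not pass. Set against rest, ITGAL was 1.63-fold higher in activated HuRKO cells (log2 change 0.71, FDR 3e-09) and 5.04-fold lower in activated WT cells (log2 change -2.33, FDR 2e-84), by the authors' deposited table.

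VLA-4 binds VCAM-1 and fibronectin and supports rolling and arrest of lymphocytes. ITGA4 (ENSG00000115232.13, chromosome 2, 181457202 to 181536187, plus strand, hg38) was the most abundant integrin gene in the table per length, at 1296 normalised counts per kb of exon in activated HuRKO cells. Its level was 10243 in activated HuRKO against 1949.7 in activated WT cells, and 6602 in resting HuRKO against 6907 in resting WT cells. Both resting groups lay close together, the activated WT group below them and the activated HuRKO group above. The authors' deposited table has a log2 change of 2.39 for the activated groups (5.25-fold, SE at most 0.11, FDR 4.3e-104) and of -0.07 at rest (SE at most 0.21, FDR 0.75). Activation went with a 1.55-fold higher level in HuRKO cells (FDR 1.7e-08 in the authors' deposited table, log2 change 0.63). In WT cells it went with a 3.54-fold lower one (FDR 1.1e-60 in the authors' deposited table, log2 change -1.82).

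ITGA6 encodes the alpha chain of laminin receptors and is high in many stem and progenitor cells. The gene (ENSG00000091409.14, chromosome 2, 172427354 to 172506282, plus strand of hg38) stood at 1806 in activated HuRKO against 317 in activated WT cells, and at 484 in resting HuRKO against 396 in resting WT cells. Only the activated HuRKO group stood apart from the other 3. Its log2 change between the activated groups was 2.51 (5.70-fold, SE at most 0.17, FDR 7.5e-49) in the authors' deposited table. Activation raised it 3.73-fold in HuRKO cells (log2 change 1.90, FDR 2.5e-29), while the change of -0.32 in WT cells did not pass (SE at most 0.20, FDR 0.11), by the authors' deposited table.

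ITGB6, usually an epithelial chain, was likewise highest in activated HuRKO and lowest in activated WT cells, at levels far lower. ITGB6 (ENSG00000115221.10, chromosome 2, 160099666 to 160200313, minus strand of hg38) stood at 17.0 in activated HuRKO against 2.64 in activated WT cells, and at 6.63 in resting HuRKO against 6.73 in resting WT cells. The authors' deposited table calls only the difference of the activated groups (log2 change 2.68, 6.42-fold, SE at most 0.87, FDR 0.0020). A transcript named AC092153.1 overlaps 20.6% of its exon bases on the same strand, so part of these few counts may belong to either gene. None of 5 epithelial markers (EPCAM, KRT8, KRT18, KRT19 and CDH1) was listed.

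**Figure D2:**
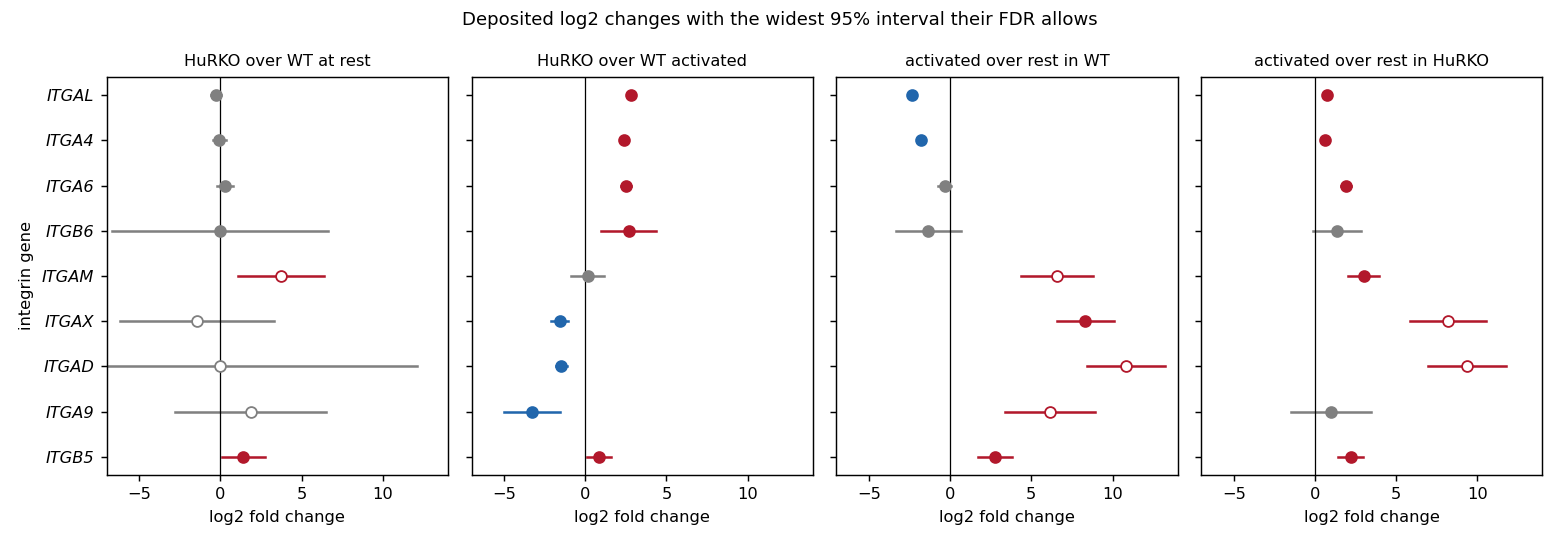
Log2 fold changes of the 9 integrin genes (horizontal axes) in the 4 comparisons of the authors' deposited table, with bars for the widest 95% interval that the FDR allows, red where called higher, blue where called lower, grey where not called, and open circles where 1 or both groups lie below the floor; the bar of ITGAD at rest runs past the left edge. After activation ITGAL, ITGA4 and ITGA6 lie between 2.39 and 2.79 with short bars, and ITGAD and ITGAX at -1.47 and -1.57.

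The response to activation differed between the genotypes for ITGAL, ITGA4 and ITGA6. The table has no test of that difference, so a bounded one was run on all listed genes. It uses the SE limits above under a normal approximation, with Bonferroni adjustment over the 58780 annotated genes and a threshold of 0.05. The HuRKO response minus the WT response was 3.04 on the log2 scale for ITGAL (SE at most 0.17, widest 95% interval 2.71 to 3.37). It was 2.46 for ITGA4 (SE at most 0.16, interval 2.15 to 2.77) and 2.22 for ITGA6 (SE at most 0.26, interval 1.70 to 2.74). These 3 of the 9 genes passed, all with the greater value in HuRKO. Of listed genes 20.2% passed, 9.78% with the greater and 10.4% with the smaller value in HuRKO. ITGA4 and ITGA6 are in the table only through their change between the activated groups. ITGAL is there through that change and through its change with activation in WT cells. Each of these changes is part of the difference tested, so the 3 genes were selected in part by the values under test. The difference for ITGB6 was 2.70, with an SE of at most 1.27, and did not pass after adjustment. ITGAL and ITGA4 were called lower in activated WT and higher in activated HuRKO cells, each against rest, a combination found in 136 of 2587 listed genes (5.26%).

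**Figure D3:**
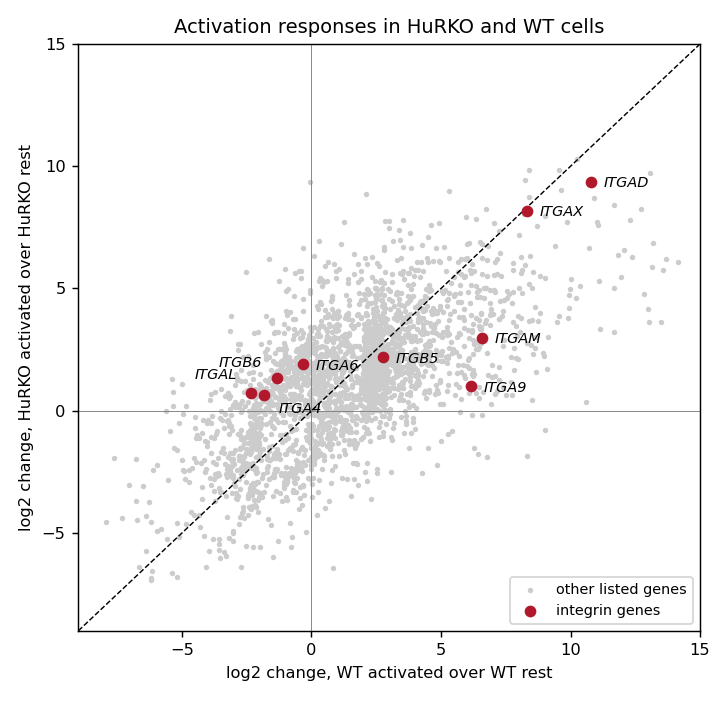
Log2 change with activation in HuRKO cells (vertical axis) against that in WT cells (horizontal axis), for the listed genes (grey) and the 9 integrin genes (red), with equal responses on the dashed line; the 2 axes share no library. ITGAL and ITGA4 sit left of 0 and above 0, ITGAX and ITGAD lie at the upper right, and ITGA9 and ITGAM lie below the line.

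Of the alpha chains of the beta 2 family that are best known from myeloid cells, ITGAX and ITGAD were below or near the floor at rest and well above it after activation. ITGAX, part of complement receptor CR4, was at 121 in activated HuRKO against 358 in activated WT cells, and at 0.416 in resting HuRKO against 1.12 in resting WT cells. ITGAD, which binds ICAM-3 and VCAM-1, was at 246 in activated HuRKO against 683 in activated WT cells and below the floor in both resting groups. Both genes were thus seen in activated cells of either genotype, and at a lower level in HuRKO. By the authors' deposited table the change between activated groups was -1.57 for ITGAX (2.96-fold lower, SE at most 0.27, FDR 1e-08) and -1.47 for ITGAD (2.77-fold lower, SE at most 0.18, FDR 1e-15).

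Set against rest, ITGAD was at least 246-fold higher in activated HuRKO and at least 683-fold higher in activated WT cells. ITGAX was at least 121-fold higher in activated HuRKO cells and 321-fold higher in activated WT cells, the last of these against a resting level of about 3 counts over the group. All 4 changes passed in the authors' deposited table, with FDRs of 2e-14 and 1.1e-18 for ITGAD and of 1e-11 and 1.2e-20 for ITGAX. The difference of responses did not pass for either gene, at -1.44 for ITGAD (SE at most 1.73) and -0.15 for ITGAX (widest 95% interval -3.08 to 2.79). Resting levels this low leave wide limits.

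ITGAM, the alpha chain of Mac-1 and complement receptor CR3, was also called higher with activation in both genotypes. Unlike ITGAX and ITGAD, it was called between the resting groups and not between the activated groups. It was at 74.2 in activated HuRKO against 67.2 in activated WT cells (log2 change 0.14, SE at most 0.53, FDR 0.79 in the authors' deposited table). At rest it was at 9.33 in HuRKO cells and below the floor in WT cells, so at least 9.33-fold higher in HuRKO (FDR 0.0059 in the authors' deposited table, log2 change 3.73). Activation raised it 7.96-fold in HuRKO and at least 67.2-fold in WT cells (FDR 1.4e-09 and 9.2e-09 in the authors' deposited table). The difference of responses, -3.59 with an SE of at most 1.25, did not pass after adjustment.

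Markers of other cell types were looked for among the listed genes, and a marker outside the table may be present and unchanged. Of 9 monocyte and macrophage markers 1 was listed, the growth factor receptor CSF1R, at 31.5 in activated HuRKO against 7.11 in activated WT cells and below the floor in both resting groups. Of 8 dendritic cell markers 1 was listed, IRF8, at 65.5 in activated HuRKO against 487 in activated WT cells, and at 146 in resting HuRKO against 128 in resting WT cells. CSF1R was therefore higher, and IRF8 lower, in activated HuRKO cells (FDR 0.0072 and 9e-30 in the authors' deposited table). Of 7 natural killer markers 4 were listed (GNLY, KLRD1, KLRF1 and NCAM1), with summed levels of 281, 156, 38.2 and 13.2 in activated HuRKO, activated WT, resting HuRKO and resting WT cells. KLRD1 makes up most of the sum in activated cells and was not called between the activated groups. The other members went opposite ways there, with GNLY and NCAM1 higher and KLRF1 lower in HuRKO. Of 6 B-cell markers 1 was listed (CD79B, highest at 19.8 in activated WT cells), of 5 fibroblast markers 1 (COL1A1, highest at 210.0 in activated WT cells), and of 4 platelet markers 0. The part of other cell types in the levels of ITGAM, ITGAX and ITGAD was not tested.

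ITGAM, ITGAX and ITGAD are neighbours on chromosome 16, and ITGAL lies on the same arm of it. In GENCODE 29 (hg38, plus strand) ITGAM spans 31259967 to 31332892, ITGAX 31355134 to 31382997 and ITGAD 31393312 to 31426505. Gaps of 22.2 kb and 10.3 kb separate the 3 genes, and 737 kb separate ITGAL from ITGAM. In activated WT cells the 3 adjacent genes were called higher than at rest while ITGAL was called lower. A short transcript inside ITGAD, AC093520.1, is listed too and covers 3.31% of the exon bases of ITGAD, so a small part of the counts of that gene is uncertain.

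**Figure D4:**
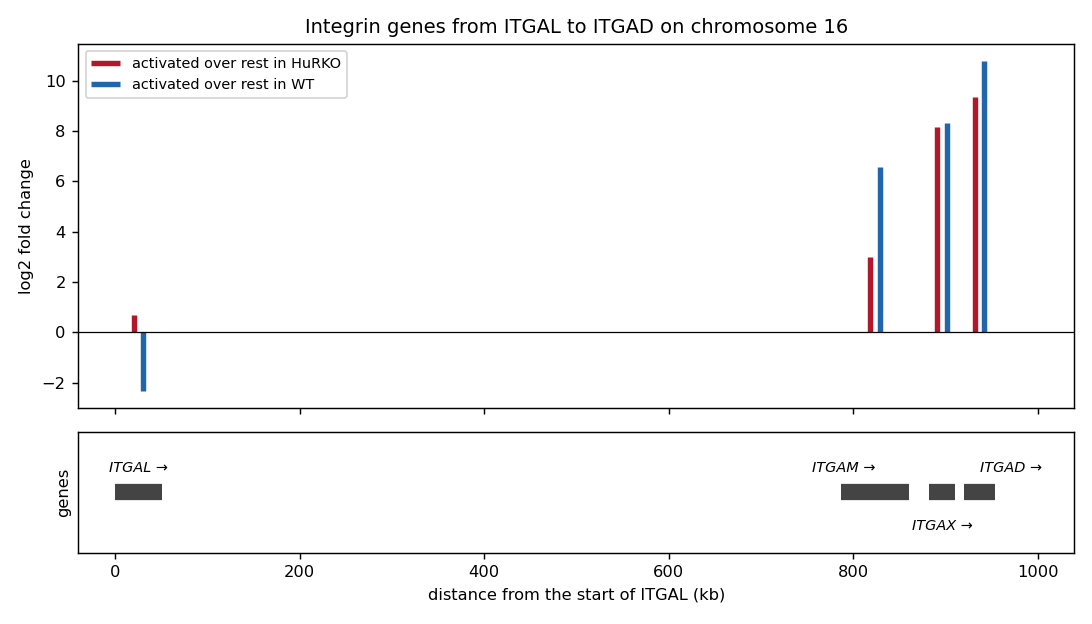
Log2 change with activation in HuRKO (red) and WT cells (blue) for the 4 integrin genes from ITGAL to ITGAD on chromosome 16, above their positions in kb from the start of ITGAL, with arrows for the strand. ITGAL has a value of 0.71 in HuRKO and -2.33 in WT cells, and the 3 other genes lie above 0 in both.

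Sequences shared between integrin genes could blur their counts, so stretches of 50 bases were compared among annotated transcripts. ITGAX shares 88 of its 7381 such stretches with other listed integrin genes, ITGAD 67 of 4421 and ITGAM 21 of 5767. The remaining 6 genes share none with another listed integrin gene. With any other annotated gene, ITGB6 shares 873 of 4912, ITGAD 181 of 4421, ITGAX 112 of 7381, ITGAL 36 of 7154 and ITGAM 21 of 5767. ITGA4, ITGA6, ITGA9 and ITGB5 share none with any gene. Read length is not given in the sources used here.

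The 2 other genes were low. ITGA9, whose chain binds tenascin-C and VCAM-1 (ENSG00000144668.11, chromosome 3, 37452115 to 37823514, plus strand of hg38), stood at 2.73 in activated HuRKO against 26.6 in activated WT cells, and at 1.37 in resting HuRKO cells against a level below the floor in resting WT cells. Only activated WT cells held more than a few counts. The authors' deposited table has a log2 change of -3.29 for the activated groups (9.77-fold lower in HuRKO, SE at most 0.87, FDR 0.00017). In WT cells activation raised it at least 26.6-fold (FDR 1.3e-05), and in HuRKO cells the change of 0.99 did not pass (SE at most 1.26, FDR 0.43), by the authors' deposited table. The difference of responses was -5.17 with an SE of at most 1.89 and did not pass after adjustment.

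ITGB5 (ENSG00000082781.11, chromosome 3, 124761948 to 124901418, minus strand of hg38) stood at 58.8 in activated HuRKO against 32.4 in activated WT cells, and at 12.9 in resting HuRKO against 4.81 in resting WT cells. It was higher with activation in both genotypes and higher in HuRKO in both states. The authors' deposited table has log2 changes of 0.86 after activation (1.81-fold, SE at most 0.38, FDR 0.023) and 1.42 at rest (2.68-fold, SE at most 0.68, FDR 0.037). Activation raised it 4.57-fold in HuRKO and 6.74-fold in WT cells (FDR 4.5e-08 and 2e-07 in the authors' deposited table). The difference of responses did not pass, at -0.56 with an SE of at most 0.66.

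At rest ITGAM and ITGB5 were called, both higher in HuRKO, and the other 7 integrin genes were not. Of all listed genes 40.5% were called at rest, 25.0% higher and 15.4% lower. The median log2 change of the 9 genes was -0.02, beside 0.18 for all listed genes. For ITGAL, ITGA4 and ITGA6, the 3 most abundant of them, the limits are narrow enough to bound the change, and the widest interval reached from -0.56 for ITGAL to 0.77 for ITGA6. For ITGA9, ITGAD, ITGAX and ITGB6 the limits span several log2 units and bound little.

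Activation called 7 of 9 integrin genes in each genotype. In HuRKO cells all 7 were higher and 0 lower, beside 76.7% of listed genes called, 58.1% higher and 18.5% lower. In WT cells 5 were higher and 2 lower, beside 73.9% of listed genes called, 52.0% higher and 21.8% lower. The 4 genes ITGAD, ITGAM, ITGAX and ITGB5 were called higher in both genotypes. ITGA9 was called higher in WT cells alone and ITGA6 in HuRKO cells alone, and ITGB6 in neither.

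Per kb of exon, the order of the integrin genes in activated HuRKO cells was ITGA4 at 1296, ITGAL at 804, ITGA6 at 276, ITGAD at 55.8, ITGAX at 17.1, ITGAM at 13.1, ITGB5 at 9.12, ITGB6 at 3.62 and ITGA9 at 0.329. In activated WT cells ITGA4 was at 247 per kb and ITGAD, at 155, came before ITGAL, at 116. In resting WT cells ITGA4 at 874 and ITGAL at 587 were followed by ITGA6 at 60.5, and no other integrin gene exceeded 1.43 per kb. No test between genes was made.

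Since HuR binds runs of A and U, the annotated 3′ untranslated region (UTR) of 1 principal GENCODE 29 transcript per gene was read for the letters ATTTA and TTTNTTT, on the transcript strand and with overlapping matches counted. The stretch of 30 bases with most matched bases is shown for the 3 genes that passed the test of responses and for ITGAX. Like ITGAD and ITGA9, which are not shown, ITGAX went the other way between activated groups. It had the most matches to TTTNTTT per kb of the integrin genes, at 20.2, many of them overlapping in the stretch shown. Capitals mark matched bases, and the positions are hg38.
ITGA6: tgtatatggtATTTATTTTTTCTTTTCTTT
ITGA4: gaccattatcactttaaagcccTTTATTTA
ITGAL: agtgccaagcacagtgcctgcatgtATTTA
ITGAX: TTTCTTTTTTTTTTTTTTTCTTTTCTTTTT
These lie at chr2:172504889-172504918, chr2:181536020-181536049, chr16:30523131-30523160 and chr16:31382225-31382254, all on the plus strand. ITGA6 held 7 matches to ATTTA and 13 to TTTNTTT in 2162 bases, ITGA4 3 and 4 in 660 bases, ITGAL 1 and 0 in 1520 bases and ITGAX 0 and 22 in 1090 bases. Among the other 5 genes, ITGB6 had 6 and 11 matches in 2070 bases, ITGA9 had 7 and 3 in 4525 bases and ITGB5 had 1 and 3 in 1675 bases. ITGAD and ITGAM had no match to either in 377 and 122 bases. Among 19126 coding genes, 64.3% had at least 1 ATTTA and 63.0% at least 1 TTTNTTT, with medians of 1.41 and 1.67 matches per kb. Among the 1828 listed coding genes the shares were 65.5% and 64.4%. Of the 5 genes called higher in activated HuRKO cells, ITGAL thus had 1 match and the other 4 had several. Of the 3 genes called lower there, ITGAX and ITGA9 had several too and ITGAD had none. Any link between matches and direction was not tested. A match is a string of letters and not a binding site, and the UTR in use in these cells is not known.

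Genes that work with integrins were counted from 4 lists. Activators and cytoplasmic linkers join the beta chain tail to actin and to signals from the small GTPase RAP1. Of 59 such genes 7 were listed, and 4 were higher and 3 lower in activated HuRKO than in activated WT cells, beside 42.2% of all listed genes higher and 35.4% lower. RASGRP2, the exchange factor CalDAG-GEFI that activates RAP1, was at 414 in activated HuRKO against 87.6 in activated WT cells. The linker TNS3 went the other way, at 56.4 against 1075 in the same order of groups. RAPGEF3 (EPAC1), another exchange factor for RAP1, was 2.32-fold lower and the talin-binding KANK1 2.51-fold higher in activated HuRKO cells (FDR 8.8e-07 and 9.9e-06 in the authors' deposited table). At rest 2 were higher and 2 lower in HuRKO (25.0% and 15.4% of all listed genes). The actin cross-linker FLNA, which competes with talin for beta chain tails, was at 4641 in resting HuRKO against 28555 in resting WT cells. RASGRP2 was lower at rest as well, at 899 against 1779, the opposite of its direction in activated cells. KANK1 was 4.06-fold and RAP1GAP2 1.33-fold higher in HuRKO at rest. With activation 4 were higher and 3 lower in HuRKO cells (58.1% and 18.5% of all listed genes), and 3 higher and 4 lower in WT cells (52.0% and 21.8%).

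Of 53 ligands 16 were listed, and in activated cells 4 were higher, 8 lower and 4 not called in HuRKO, so that 12 of 16 were called beside 77.6% of all listed genes (42.2% higher and 35.4% lower). VCAM1, the ligand of VLA-4, was at 7.92 in activated HuRKO against 201 in activated WT cells, and ICAM1, the ligand of LFA-1, at 156 against 529 in that order. Both ligands were therefore lower in the activated cells in which ITGA4 and ITGAL were higher. ITGAD and ITGA9, whose chains bind VCAM-1 too, were lower in those cells, as VCAM1 was. ICAM1 was named after its value was seen, and no link between ligand and receptor levels was tested. Tenascin-C (TNC), a ligand of alpha 9 integrin, was at 5.85 in activated HuRKO against 624 in activated WT cells, and the laminin chain LAMA2 at 11.2 against 239. COL6A2 and the laminin chain LAMB1 were higher, at 337 and 1429 in activated HuRKO against 7.14 and 106 in activated WT cells. The median log2 change of the 16 ligands between activated groups was -0.49, beside 0.36 for all listed genes. At rest 6 were higher and 3 lower in HuRKO, beside 25.0% and 15.4% of all listed genes. Activation raised 14 and lowered 0 in each genotype, beside 58.1% of all listed genes raised and 18.5% lowered in HuRKO cells and 52.0% and 21.8% in WT cells.

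Of 27 membrane proteins that associate with integrins 4 were listed. In activated HuRKO cells 1 was higher, 2 were lower and 1 was not called, beside 42.2% of all listed genes higher and 35.4% lower. The syndecan SDC4, a co-receptor for fibronectin, was at 47.3 in activated HuRKO against 5668 in activated WT cells, and the tetraspanin CD82 at 8720 against 19201, and both were called lower. The tetraspanin TSPAN7 was higher, at 2699.8 in activated HuRKO against 728 in activated WT cells, and TSPAN32, at 10.8 in both, was not called. At rest TSPAN32 alone was called, at 11.3 in HuRKO against 2.19 in WT cells (FDR 0.041 in the authors' deposited table), beside 40.5% of all listed genes called.

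Of 26 other adhesion and homing receptors 13 were listed, with 6 higher, 4 lower and 3 not called in activated HuRKO cells, a share called close to the 77.6% of all listed genes (42.2% higher and 35.4% lower). L1CAM and S1PR1, the receptor by which T cells leave lymph nodes, were 17.9-fold and 13.0-fold higher, CD34 was 7.06-fold and NCAM1 4.77-fold higher. These are the 4 with the greatest change among the called members, with FDRs of 3.3e-31, 1.4e-37, 8.4e-15 and 0.00023 in the authors' deposited table. CD2, which binds CD58, was at 399.7 in activated HuRKO against 1307 in activated WT cells, and at 380.2 in resting HuRKO against 1760 in resting WT cells. At rest 4 members were higher and 2 lower in HuRKO, beside 25.0% and 15.4% of all listed genes. NCAM1, L1CAM and S1PR1 were among those higher at rest, by 5.63-fold, 4.03-fold and 2.03-fold, and CD34 was not called there.

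**Figure D5:**
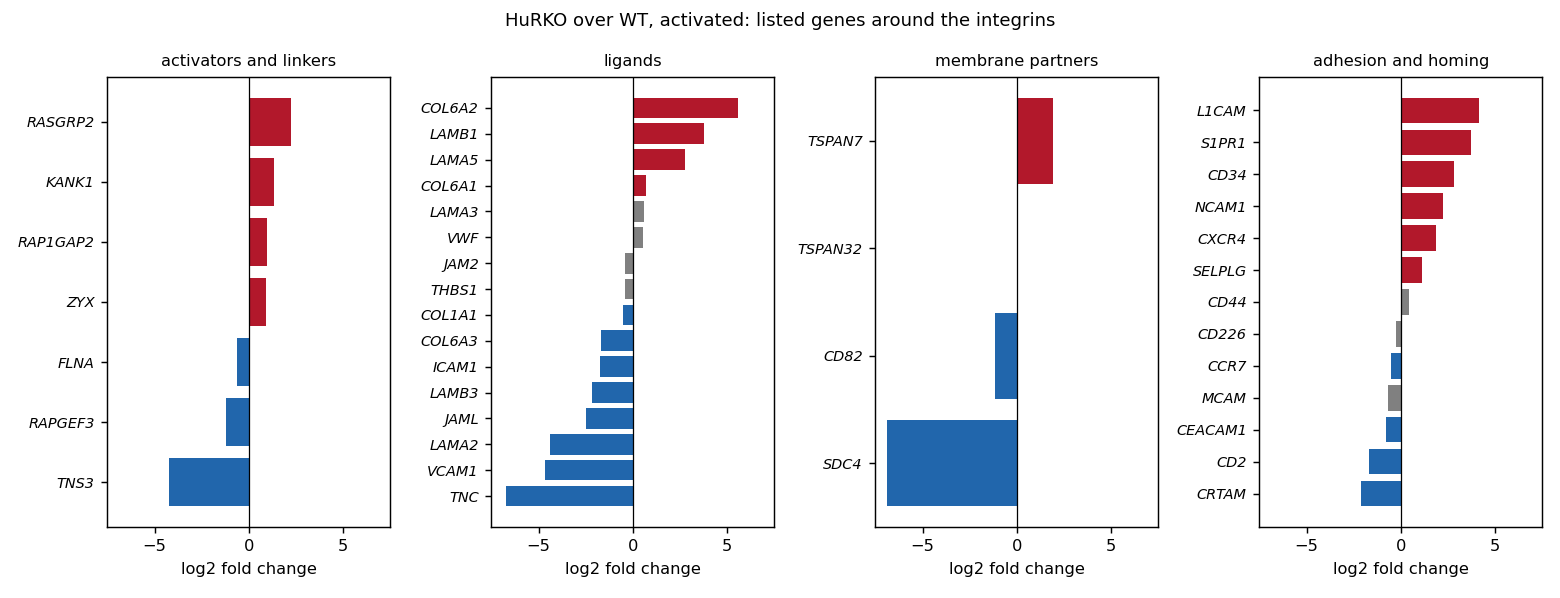
Log2 fold change of activated HuRKO over activated WT cells (horizontal axes, from the authors' deposited table) for the listed members of the 4 lists, red where called higher, blue where called lower and grey where not called. TNC, SDC4, VCAM1 and TNS3 lie below -4 and COL6A2 at 5.56.

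Genes whose 4 group levels were most like those of each integrin gene were ranked over all named genes, by the distance between log2 levels centred on their mean. ITGA4 was closest to KCNH8, ADAMTS15 and IQGAP2 (distances 0.09, 0.15 and 0.17), and ITGAL to ADAMTS1, SH2D1A and KCNH8 (0.16, 0.21 and 0.35). ITGA6 was closest to GPR19, AFAP1L2 and AFF3, at 0.22, 0.24 and 0.24. The nearest to ITGAX were CD69 and IL4I1 (0.84 and 0.93), and to ITGAD CRTAM, ZNF683 and ITGAX (0.79, 0.88 and 1.07). The nearest gene was PDLIM4 for ITGA9, PHACTR2 for ITGAM, DNAH7 for ITGB5 and LINC02453 for ITGB6. Between integrin genes the distance was smallest for ITGA4 and ITGAL, at 0.38. The measure rests on 4 groups, and shared libraries enter every level.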

How the data were processed

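RNA was measured in 12 libraries, 3 per group. Per the labels' protocols, libraries were directional and made from poly(A) RNA. The build hg38 and the aligners TopHat and Bowtie2 are named by the submitters' processing notes. How reads were counted, and which test gave the FDR, is not given in the sources used here. The mean level, deposited by the authors, is read as a signal, the mean of normalised counts of every library. Their deposited changes are read as log2 values. The header gives no base, and on base 2 a window 10% wide holds up to 30.6% of resting WT levels below the floor, against 5.34% on base e. The deposited FDR is a p-value adjusted by the authors.

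Group levels were solved from that mean and the 4 changes, with a floor of 1. A fold against a level below it was computed against the floor. The difference of activation responses was tested with SEs bounded by the FDRs, taking the smaller variance of the 2 ways to pair the comparisons. This test was checked on simulated data with normal errors, the same SE in every group of a gene and no selection by fold. That check therefore does not cover the selection of the listed genes or levels near the floor. The integrin genes, lists and tests were chosen with earlier results of these data known. For the comparisons of HuRKO with WT cells, list members are named by rule: the up to 4 called members of largest change, or all where 6 or fewer are listed. For the changes with activation no list member is named. Members said not to be called at rest are ones already named for activated cells. In activated cells ICAM1, LAMB1 and CD2 fall outside that rule and were named after their values were seen. The pattern ranking leaves out clone names and pseudogenes. Of the gene IDs 2577 matched GENCODE 29, without versions. Depth per library is unknown, so no counting interval is given. Nothing in the labels says that replicates were separate cultures, so the FDR may measure technical spread. Calls at FDR 0.01, at 2-fold and 4-fold, and from a mean level of 20 were alternatives. Python 3.11.15, numpy 2.4.6, pandas 2.3.3 and scipy 1.17.1 were used.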

Additional observations from a re-analysis of the deposited data

Results flagged for a closer look

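The activation response differed between HuRKO and WT cells for 3 integrin genes, by the bounded test of that difference. On the log2 scale the HuRKO response minus the WT response was 3.04 for ITGAL, 2.46 for ITGA4 and 2.22 for ITGA6. ITGAL was 1.63-fold higher with activation in HuRKO and 5.04-fold lower in WT cells, and ITGA4 was 1.55-fold higher in HuRKO and 3.54-fold lower in WT cells. ITGA6 was 3.73-fold higher with activation in HuRKO cells, and its change in WT cells did not pass. Of all listed genes 20.2% passed this test, 9.78% with the greater value in HuRKO. ITGA4 and ITGA6 are in the table only through their change between activated HuRKO and activated WT cells, which is part of the difference tested. ITGAL is there through that change and its change with activation in WT cells, and both are part of the difference tested.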

How the results depend on the processing

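No paired analysis was possible because the table holds no values per library, and for the same reason no replicate could be left out. At an FDR of 0.01 the count of integrin genes called at rest was 1. With calls of at least 4-fold it was 1 at rest, 5 between activated groups and 4 for activation of HuRKO cells. With a floor of 3 normalised counts 9 group levels lay below it, against 5 with the floor of 1. The remaining 15 alternative counts moved by no more than 1.5 times. Raising levels to the floor can shrink a change of an integrin gene but cannot reverse it, so that setting is no check of direction. The 3 differences of response passed with either way of bounding the SE. They had to pass with the count of listed genes as multiplier, since it is smaller than that of annotated genes. Ranked by correlation, 5 of the 27 nearest genes were shared with the ranking by distance. Genes below about 20 counts, ITGA9 and ITGB6, rest on few reads.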
